A study of Mus musculus with 6 samples.

Results

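The tetraspanins of maturing red cells described here are 10 genes (Cd9, Cd37, Cd53, Cd63, Cd81, Cd82, Cd151, Tspan8, Tspan32 and Tspan33), read by every non-control probe that the array design names for them. They are 10 of the 34797 gene names in the design, and 16 of its 55681 distinct probes: 6 genes had 1 probe each, Cd37 and Cd151 had a pair, and Cd82 and Tspan32 had 3 each. The probes were taken by gene name, with no threshold on a measured value. The cells were G1E-ER-GATA-1, immature red cell precursors of the mouse in which the missing transcription factor GATA-1 is replaced by ER-GATA-1, a fusion that estradiol activates to start maturation. Cells nucleofected with Foxo3 siRNA (3 arrays) were compared with cells nucleofected with nontargeting siRNA (3 arrays). All 6 samples received siRNA at 0 h and again at 24 h and estradiol at 24 h, and their total RNA was taken at 48 h, so that both groups carry active ER-GATA-1 for 24 h and neither holds untreated cells. No label says that the replicates were separate cultures, so the p-values measure the spread between these samples, which may be technical.

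Tetraspanins are small membrane proteins that cross the lipid bilayer several times and gather integrins, immunoglobulin-type receptors and proteases into patches of the plasma membrane and of endosomes. Some of them, CD63, CD81 and CD9 among them, are also standard markers of the vesicles that cells shed. A maturing red cell sorts membrane proteins it no longer needs, including the transferrin receptor, into such vesicles, and FOXO3, the forkhead factor targeted here, is known for switching on genes for organelle clearance and antioxidant defence in late erythroblasts.

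Levels are given as the log2 of a spot's background-subtracted signal minus the log2 of that array's 75th percentile, so 0 is the 75th percentile and levels of different probes are not set against each other. A probe entered the test if either group had it well above background on each of its 3 arrays, and 27031 probes did. A probe is said to have risen or fallen when its limma p-value, adjusted by the Benjamini-Hochberg method over those 27031 probes, was under 0.05. The arrays lay on 1 slide and were scanned together. Well-above-background spots numbered 20343 to 37532 on the Foxo3 siRNA arrays and 31611 to 33513 on the nontargeting arrays. The lowest of these counts belonged to Foxo3 siRNA replicate 3, on which 50.2% of non-control spots were filled with a surrogate because their signal did not exceed background, against 16.7% to 29.3% on the other 5 arrays. On that array the lowest level of a well-above-background probe was -1.70, against -4.85 to -3.81 on the other 5. A probe can therefore miss background there at a level that passes elsewhere. The median log2 fold change over all tested probes was -0.15, against 0.15 after scaling each array to its median. The sign of a small change can therefore turn with the scaling. The probe on the RefSeq Foxo3 transcript read -0.47, -1.29 and -1.89 with Foxo3 siRNA, against 1.20, 1.28 and 1.12 with nontargeting siRNA. It was above background on 2 of 3 Foxo3 siRNA arrays and so entered the test only through the nontargeting group. Its log2 fold change was -2.42 (SE 0.34, limma adjusted p = 0.0052), and -1.67 with the slide row as a block (adjusted p = 0.0289). The second Foxo3 probe, made to a cDNA clone, did not pass the test (0.26, adjusted p = 0.243). Of 9 erythroblast marker genes, 8 were above background on every array, and Rhag (1.41) and Tfrc (0.61) rose. These were 2 of 9 tested, against 12.3% of all tested probes that rose. The linear levels of the 9 genes, in multiples of the 75th percentile, summed to 1758 to 2372 in the Foxo3 siRNA samples, against 2527 to 2726 in the nontargeting samples, which do not overlap. Most of each sum came from Hbb-b1 (-0.54, limma adjusted p = 0.0737) and Alas2 (-0.40, adjusted p = 0.0552), which did not pass. The part of the difference between these sums in the results below was not tested.

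Of the 16 probes, 12 on 7 genes entered the test, and 4 of them passed it. Both Cd37 probes rose, and the Cd63 probe and the upstream Cd151 probe fell. The share called among all tested probes was 25.3% (12.3% higher and 13% lower), so 4 of 12 is near that background. Cd63 and both tested Cd82 probes entered only through the nontargeting group. Of the 9 probes above background on all 6 arrays 3 were called. The 25.3% covers probes kept through either group, so it is not the share for such probes. Cd81, Tspan32, Tspan33 and Cd82 did not pass the test with any probe, and Cd9, Cd53 and Tspan8 stayed out of it because they were too dim. The groups did not overlap for 7 of the 12 tested probes, as was the case for 49.6% of all tested probes. Because the samples are bulk RNA, fewer cells of a type and less RNA per cell cannot be told apart in any of these values.

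**Figure D1:**
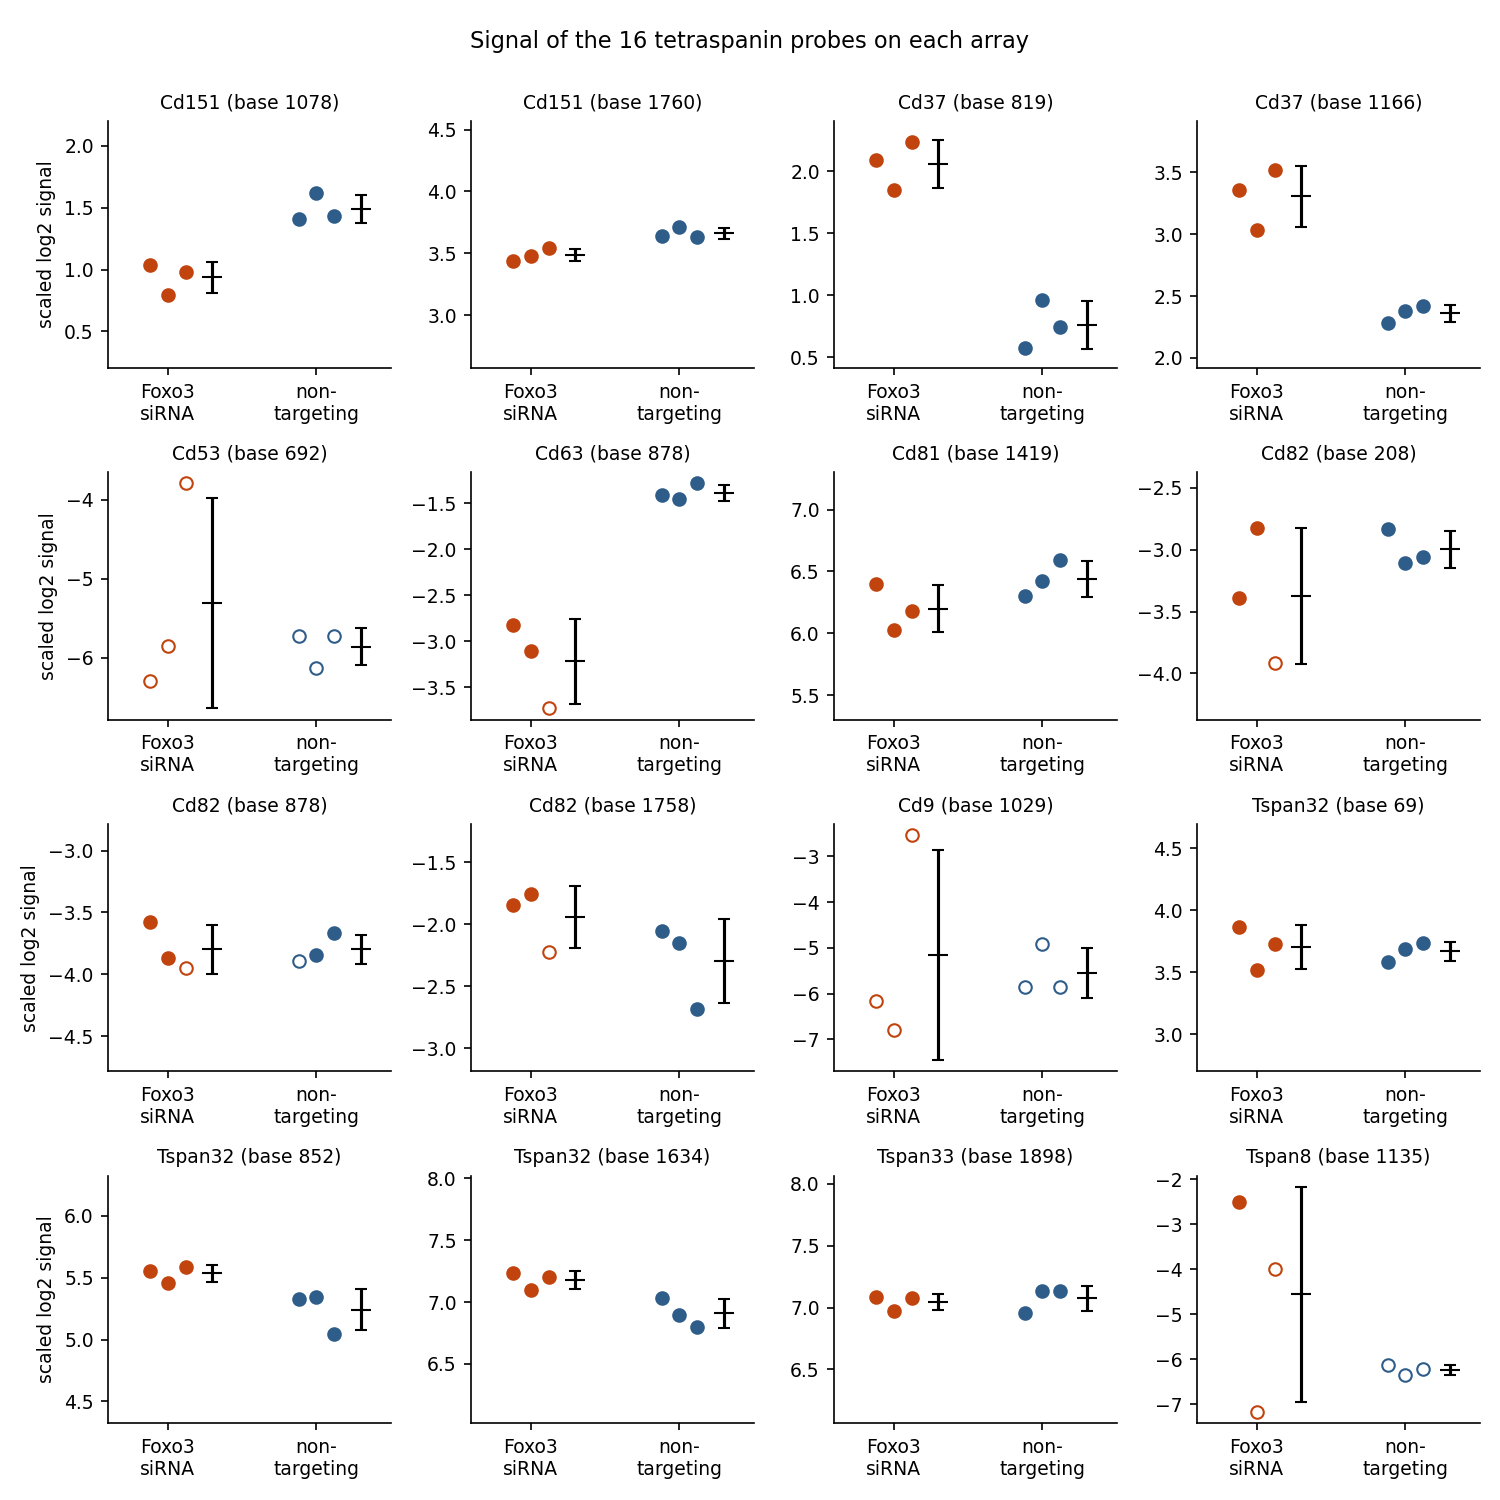
Scaled log2 signal (y axis, 0 is the array's 75th percentile) of each of the 16 probes on the 3 Foxo3 siRNA arrays (left, orange) and the 3 nontargeting arrays (right, blue), titled by gene and by the probe's first base in its transcript; bars are the mean and SD, and open points were not well above background. Both Cd37 probes sit higher with Foxo3 siRNA, Cd63 sits lower, and Cd9 and Cd53 have no filled point.

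Among the called members, the probe sequences are shown for the Cd37 probe with the larger rise and for the Cd151 probe that fell, since each shares its gene with a second probe that read a smaller change. Both are printed in the sense of the mRNA, in the orientation of the array design. The Cd37 probe lies on the minus strand of mouse build mm9 at chr7:52490054-52490113 and the Cd151 probe on the plus strand at chr7:148656555-148656614.
Cd37 probe at base 819: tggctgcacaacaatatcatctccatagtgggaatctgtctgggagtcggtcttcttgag
Cd151 probe at base 1078: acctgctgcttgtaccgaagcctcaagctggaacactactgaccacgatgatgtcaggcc

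Cd37 rose with Foxo3 siRNA. It encodes a tetraspanin known from mature B cells and other leukocytes, where it pairs with integrins and MHC class II. The probe at base 819 read 2.09, 1.85 and 2.24 in the Foxo3 siRNA samples, against 0.58, 0.96 and 0.74 in the nontargeting samples. Every Foxo3 siRNA sample lay above every nontargeting sample, and all 6 spots were well above background, with signals of 1481 to 1860 against 456 to 664 intensity units. The log2 fold change was 1.30 (SE 0.16, 95% interval 0.92 to 1.68, limma adjusted p = 0.00347), which is 2.46-fold. The second probe, which starts 347 bases further downstream at chr7:52489002-52489061, read 3.36, 3.04 and 3.52 with Foxo3 siRNA, against 2.29, 2.38 and 2.42 with nontargeting siRNA. It gave 1.93-fold (log2 fold change 0.95, SE 0.15, adjusted p = 0.0078 in the same limma fit), again with no overlap between the groups. The difference between the 2 probes' log2 fold changes was 0.36, which reached the smallest p that 3 against 3 arrays can give (exact two-sided permutation test, p = 0.1, 0.2 after adjustment over 6 probe pairs) and so could not pass 0.05.

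The rise of the Cd37 probe at base 819 was as large on slide row 1, which holds Foxo3 siRNA replicate 1 and all nontargeting arrays (log2 fold change 1.33). It was also the only member past 0.05 in the authors' deposited table, with a log2 fold change of 1.23 and an adjusted p of 0.0345, a threshold that 2.27% of non-control spots passed in that table. The downstream Cd37 probe kept its size with the slide row as a block (1.00) but not its call (limma adjusted p = 0.0632), and in the authors' deposited table it had 0.94 and 0.0532. Among B cell genes, Ms4a1 and Pax5 were well above background on 0 of 6 arrays. Cd79a was above it on 2 of 3 Foxo3 siRNA and all 3 nontargeting arrays, and did not pass the test (-0.08, limma adjusted p = 0.808). Among T cell genes, 3 were tested and 0 passed, against 25.3% of all tested probes. Their log2 fold changes were -0.48 for Cd3e, -0.21 for Cd4 and 0.22 for Lck. The part of these B and T cell genes in the rise of Cd37 was not tested.

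Cd63 fell with Foxo3 siRNA. CD63 is the tetraspanin of late endosomes, lysosomes and secretory granules, and of the vesicles that multivesicular bodies release. Its only probe (base 878, mm9, plus strand, chr10:128349813-128349872) read -2.82, -3.10 and -3.73 in the Foxo3 siRNA samples, against -1.41, -1.45 and -1.28 in the nontargeting samples. All nontargeting samples lay close together, and all Foxo3 siRNA samples lay well below them. The log2 fold change was -1.84 (SE 0.23, 95% interval -2.40 to -1.27, limma adjusted p = 0.00401), for a probe that entered the test only through the group in which it is high.

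The Cd63 probe was dim, with signals of 49.0, 59.2 and 29.7 in the Foxo3 siRNA samples and 115, 124 and 126 in the nontargeting samples. Its spot cleared background well on 2 of 3 Foxo3 siRNA arrays and on all 3 nontargeting arrays, so a filter on all 6 arrays leaves it out. On Foxo3 siRNA replicate 3, where it was not well above background, no signal on the whole array was under 24.1. Without that array the log2 fold change was -1.58 (limma adjusted p = 0.00698). With the slide row as a block it was -1.44 (adjusted p = 0.0424), and with normexp background correction it was -0.89 (adjusted p = 0.0126). In the authors' deposited table Cd63 had -1.45 with an adjusted p of 0.143, which does not pass 0.05. CD63 also lies on mast cell granules. None of 4 mast cell marker genes entered the test, and Cpa3 and Mcpt8 were above background on 0 arrays. Macrophages, rich in lysosomes, express CD63 too. Of 4 tested macrophage markers 0 passed the limma test, against 25.3% of all tested probes. Their log2 fold changes were -0.91 for Csf1r, -0.61 for Adgre1, -0.40 for Marco and -0.37 for Cd68, and Mrc1 was above background on 0 arrays. The summed linear level of the 5 genes was 4.92 to 6.51 in the Foxo3 siRNA samples, against 7.50 to 13.6 in the nontargeting samples. Most of each sum came from Csf1r, which did not pass (limma adjusted p = 0.065). Csf1r read 2.26, 1.93 and 1.75 with Foxo3 siRNA, against 3.52, 2.69 and 2.46 with nontargeting siRNA. The part of this summed level in the fall of Cd63 was not tested.

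Cd151, whose protein binds laminin-binding integrins, passed the test with 1 of its 2 probes. The upstream probe at base 1078 read 1.04, 0.79 and 0.98 with Foxo3 siRNA, against 1.41, 1.62 and 1.43 with nontargeting siRNA. Its log2 fold change was -0.55, a fall (SE 0.12, 95% interval -0.85 to -0.25, limma adjusted p = 0.0233), and the groups did not overlap. The downstream probe at base 1760 (chr7:148657237-148657297) read 3.44, 3.48 and 3.54 with Foxo3 siRNA, against 3.64, 3.71 and 3.63 with nontargeting siRNA. Its groups did not overlap either, but its difference of -0.17 did not pass the test (SE 0.10, 95% interval -0.42 to 0.07, adjusted p = 0.226). The 2 probes' log2 fold changes differed by -0.38 (exact two-sided permutation test, p = 0.1, the smallest possible, and 0.2 after adjustment), so they were not shown to differ. The call of the upstream probe rested on the settings: it ended with median scaling (-0.25, limma adjusted p = 0.581), with the slide row as a block (-0.45, 0.181) and when any 1 of 5 of the 6 arrays was left out (adjusted p up to 0.095), all but Foxo3 siRNA replicate 1.

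**Figure D2:**
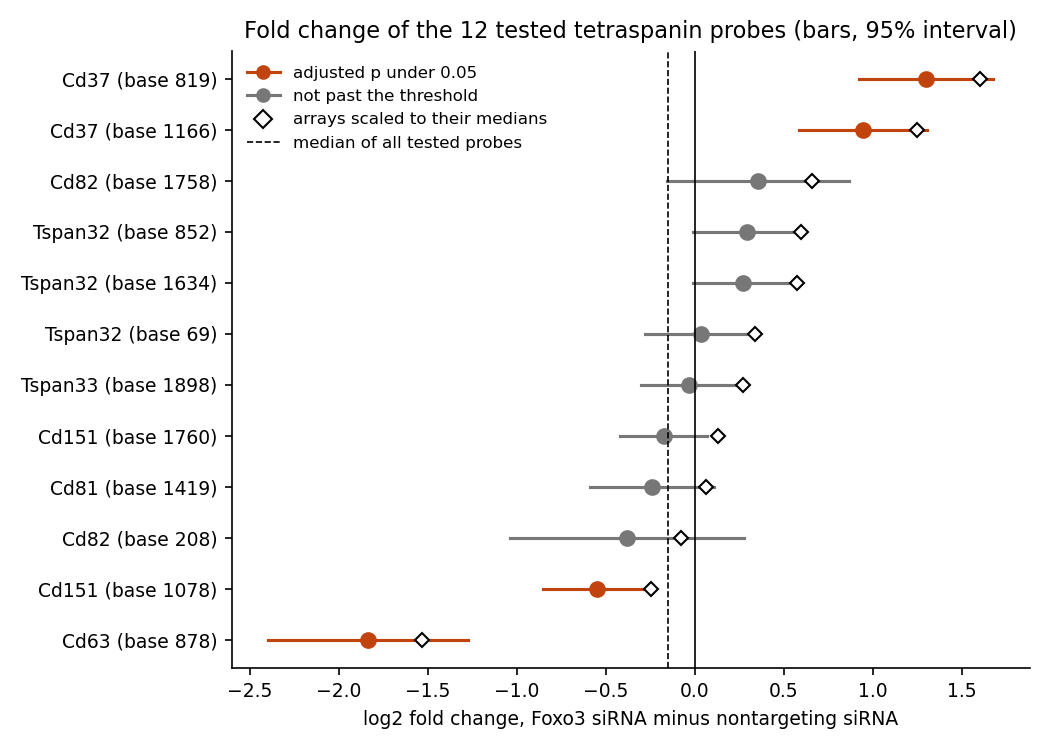
Log2 fold change (x axis, Foxo3 siRNA minus nontargeting siRNA) of the 12 tested probes with its 95% interval; orange points passed an adjusted p of 0.05, diamonds are the same probes after scaling arrays to their medians, and the dashed line is the median of all tested probes at -0.15. Cd37 lies to the right and Cd63 to the left under both scalings, and the other 9 circles lie between -0.55 and 0.36.

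Cd81 and Tspan32 are neighbours on distal mouse chromosome 7, with 0 protein-coding genes between them in the RefSeq annotation, and neither passed the test. CD81 is a marker of shed vesicles and an organiser of receptor complexes on lymphocytes. Its probe (base 1419, chr7:150253737-150253796) read 6.40, 6.02 and 6.18 with Foxo3 siRNA, against 6.30, 6.43 and 6.59 with nontargeting siRNA. The groups overlapped, with a log2 fold change of -0.24 (SE 0.15, 95% interval -0.59 to 0.11, limma adjusted p = 0.24), and the sign turned to 0.06 with median scaling. The interval leaves room for a fall of up to 0.59 on the log2 scale.

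Tspan32, a tetraspanin of blood cells that in mouse platelets works with the integrin of Itga2b and Itgb3, was read by 3 probes along its transcript. The probe at base 69 read 3.87, 3.52 and 3.72 with Foxo3 siRNA, against 3.58, 3.69 and 3.73 with nontargeting siRNA, which overlap (log2 fold change 0.03, 95% interval -0.28 to 0.35, limma adjusted p = 0.85). The probe at base 852, whose 60 bases span 1077 bases of the genome and so cross a splice junction, read 5.56, 5.46 and 5.59 with Foxo3 siRNA, against 5.33, 5.35 and 5.05 with nontargeting siRNA. The probe at base 1634 read 7.24, 7.10 and 7.20 with Foxo3 siRNA, against 7.03, 6.90 and 6.80 with nontargeting siRNA. Both downstream probes were higher in every Foxo3 siRNA sample than in any nontargeting sample, by 0.29 (SE 0.13, 95% interval -0.01 to 0.60) and 0.27 (SE 0.12, 95% interval -0.01 to 0.54), and neither passed the test (limma adjusted p = 0.125 for each). The differences between the probe at base 69 and the other 2 were -0.26 and -0.23 (exact two-sided permutation test, p = 0.2 for each).

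Tspan33 is a tetraspanin of the erythroid lineage whose protein escorts the protease ADAM10. Its probe (base 1898, mm9, plus strand, chr6:29668498-29668557) read 7.08, 6.97 and 7.08 with Foxo3 siRNA, against 6.95, 7.13 and 7.14 with nontargeting siRNA. The values of the groups were interleaved, and the log2 fold change was -0.03 (SE 0.11, 95% interval -0.30 to 0.24, limma adjusted p = 0.842). The interval covers changes of up to 0.30 on the log2 scale, so smaller differences could not be seen with these arrays.

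Cd82, known as a suppressor of tumour cell spread, was dim. The probe at base 208 read -3.39, -2.82 and -3.92 with Foxo3 siRNA, against -2.83, -3.11 and -3.06 with nontargeting siRNA (log2 fold change -0.38, 95% interval -1.04 to 0.28, limma adjusted p = 0.313). The probe at base 1758 read -1.85, -1.75 and -2.22 with Foxo3 siRNA, against -2.05, -2.15 and -2.69 with nontargeting siRNA (0.36, 95% interval -0.16 to 0.87, adjusted p = 0.236). These 2 probes had opposite signs and each overlapped between the groups. Each missed background on Foxo3 siRNA replicate 3, where no probe under -1.70 was well above it. Their difference of -0.74 reached the smallest exact permutation p of 0.1. The middle probe, at base 878, was above background on 2 arrays of each group and was not tested, at -3.58, -3.87 and -3.95 with Foxo3 siRNA, against -3.89, -3.84 and -3.67 with nontargeting siRNA.

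Cd9, Cd53 and Tspan8 were not measurable on these arrays. CD9 is a tetraspanin of platelets and many adherent cells, CD53 one of leukocytes, and TSPAN8 one of epithelia. The Cd9 and Cd53 probes were well above background on 0 of 6 arrays. The Cd9 probe read -6.16, -6.79 and -2.54 with Foxo3 siRNA, against -5.86, -4.91 and -5.85 with nontargeting siRNA, and the Cd53 probe read -6.29, -5.85 and -3.79 with Foxo3 siRNA, against -5.73, -6.14 and -5.73 with nontargeting siRNA. In both, the highest value was that of Foxo3 siRNA replicate 3, the array with the most surrogate values. Tspan8 was above background on 1 array, Foxo3 siRNA replicate 1, with levels of -2.49, -7.17 and -4.00 with Foxo3 siRNA, against -6.13, -6.35 and -6.22 with nontargeting siRNA. No fold is given for these genes.

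The promoters of the members were searched because the targeted protein is a forkhead factor and the protein activated in all samples is a GATA factor. RefSeq (GRCm38.p6) held 14 promoters for the 10 genes, and the 250 bases before each start were scanned on both strands for the forkhead core GTAAACA and for the GATA cores AGATAA and TGATAA, which share the letters GATAA. The forkhead core occurred in 1 of 14 promoters, that of Tspan8, 18 bases before the start, against 3.17% of all 32851 mouse promoters of this length. A GATA core occurred in 1 of 14, that of Tspan32, 212 bases before the start on the minus strand, against 16.6% of all promoters for either GATA core. The promoters of Cd37 (minus strand, chr7:45238840-45239089) and Cd63 (plus strand, chr10:128909095-128909344), the genes with the larger changes, and of Tspan32 (plus strand, chr7:143004796-143005045) are shown. They read 5′ to 3′ toward the gene, and the capitals mark the GATA core, which reads AGATAA on the other strand; Cd37 and Cd63 have no capitals because none of the 3 motifs is in these windows.
Cd37 promoter: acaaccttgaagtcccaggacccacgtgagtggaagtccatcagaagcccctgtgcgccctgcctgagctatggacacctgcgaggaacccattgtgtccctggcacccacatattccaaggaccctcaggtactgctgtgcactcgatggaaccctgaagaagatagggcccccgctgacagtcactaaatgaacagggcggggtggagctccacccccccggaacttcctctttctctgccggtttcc
Cd63 promoter: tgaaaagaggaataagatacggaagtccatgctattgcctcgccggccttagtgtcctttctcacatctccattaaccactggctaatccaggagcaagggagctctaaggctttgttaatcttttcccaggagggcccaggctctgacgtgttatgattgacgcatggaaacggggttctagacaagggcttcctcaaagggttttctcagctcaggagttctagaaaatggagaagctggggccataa
Tspan32 promoter: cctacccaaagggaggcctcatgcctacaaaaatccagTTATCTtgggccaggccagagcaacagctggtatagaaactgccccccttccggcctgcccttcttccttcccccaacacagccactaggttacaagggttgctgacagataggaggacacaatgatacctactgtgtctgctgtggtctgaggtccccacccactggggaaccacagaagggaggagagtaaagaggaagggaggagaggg
A match describes letters only, and no binding was measured in these samples.

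Other genes of the tetraspanin system were counted from lists of gene names, with the brightest tested probe standing for each gene. The share called among all tested probes, 25.3%, stands beside each count, but it is taken over probes and not over 1 probe per gene. Of 21 further tetraspanins, 8 entered the test, and Rom1, Tspan18 and Tspan31 rose while Tspan4 fell. Their median log2 fold change was 0.02, against -0.15 for all tested probes, and 0.33 against 0.15 with median scaling. Rom1, known from photoreceptor discs, was higher by 0.97 (SE 0.10, limma adjusted p = 0.0024). Tspan4, known in other cells from the migrasomes of retraction fibres, read -3.86, -2.94 and -3.71 with Foxo3 siRNA, against -1.36, -1.47 and -1.10 with nontargeting siRNA. Its fall (log2 fold change -2.19, SE 0.26, adjusted p = 0.0032) rests on a probe that was above background on 1 of 3 Foxo3 siRNA arrays and so entered only through the group in which it is high. Its size was -1.02 with normexp background correction and -1.54 in the authors' deposited table. Rom1 passed the test with any single array left out. Tspan31 (0.65, adjusted p = 0.0242) lost its call when any 1 of 5 arrays was left out, and Tspan18 (0.99, adjusted p = 0.0297) when any 1 of 4 was (adjusted p up to 0.102).

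Of the known partners of tetraspanins, 18 were tested, of which 5 rose and 1 fell, near the 25.3% called among all tested probes. Their median was 0.10 (0.41 with median scaling). Bsg, which encodes the immunoglobulin-type receptor basigin, rose by 1.54 (SE 0.15, limma adjusted p = 0.0018). The integrin genes Itga2b and Itgb2 rose by 1.27 (SE 0.12, adjusted p = 0.0018) and 1.14 (SE 0.12, adjusted p = 0.0025). Itgb3, which encodes the usual partner chain of the Itga2b product, fell, with a log2 fold change of -0.79 (SE 0.11, adjusted p = 0.0054), and its second probe read -0.84. Cd44, for a hyaluronan receptor, rose by 0.88, and its second tested probe by 1.42 (adjusted p = 0.00309). The transferrin receptor gene Tfrc rose by 0.61 with 1 of 3 tested probes, and the other 2 read 0.35 and 0.36 and did not pass. A second probe of Adam17, for a sheddase, fell (-0.59, adjusted p = 0.0309), while the brighter one at -0.22 did not pass. Leaving out any 1 of 5 arrays ended the call of the brighter Cd44 probe (adjusted p up to 0.103). Itgb3 lost its call with median scaling (-0.48), without a filter and in the authors' deposited table (-0.74, adjusted p = 0.0905). The call of Tfrc ended with the slide row as a block (0.59, adjusted p = 0.101), without a filter and in the authors' deposited table (0.65, adjusted p = 0.121).
Itga2b is also a megakaryocyte marker: of 7 such markers, 5 were above background on every array, and Ppbp was on 0 arrays. Of the 5 tested, 3 rose (Treml1 by 2.51, Itga2b, and Gp1ba by 0.59), against 12.3% of all tested probes that rose. Gp9 (-0.54, limma adjusted p = 0.254) and Pf4 (-0.15, adjusted p = 0.768) did not pass. The summed linear level of the 7 markers, most of it from Gp1ba, Gp9 and Pf4, was 39.3 to 70.1 in the Foxo3 siRNA samples, against 38.0 to 57.8 in the nontargeting samples. Its part in these changes was not tested.

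Of 32 genes that build or release vesicles, 28 were tested, 0 rose and 2 fell in the limma fit, against 25.3% called among all tested probes. Their median was -0.10 (0.20 with median scaling), with a range of -0.53 to 0.45. At an unadjusted p under 0.05, 3 were higher and 4 lower, and 42.8% of all tested probes passed that threshold. A second probe of Sdcbp, for the vesicle adaptor syntenin, fell (-0.51, adjusted p = 0.0307), while its brightest at -0.34 did not pass. Rab35, a small GTPase of endosome recycling, fell by 0.53 on the log2 scale (adjusted p = 0.0388), and Vps36, a subunit of the ESCRT-II sorting complex, by 0.47 (adjusted p = 0.0491). Both calls ended when any 1 of the 6 arrays was left out, and with median scaling. Stam, an early sorting subunit, at 0.45 (adjusted p = 0.0515) and Vps37a, of ESCRT-I, at -0.37 (adjusted p = 0.0779) did not pass.

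Of 10 genes near Tspan32 and Cd81 on chromosome 7, 6 were tested and 0 passed in the limma fit, against 25.3% of all tested probes. Their median was -0.11 (0.19 with median scaling). At an unadjusted p under 0.05, 1 was higher and 1 lower, against the same 42.8% of all tested probes. Cars, a transfer RNA synthetase gene, had -0.41 (limma adjusted p = 0.0709) and Tssc4, next to Cd81 in the RefSeq order, 0.27 (adjusted p = 0.116). Th, for tyrosine hydroxylase, had -0.21 (adjusted p = 0.32, sign turned to 0.09 with median scaling), and Nap1l4, for a histone chaperone, had 0.14 (adjusted p = 0.442) with a second probe at -0.47.

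**Figure D3:**
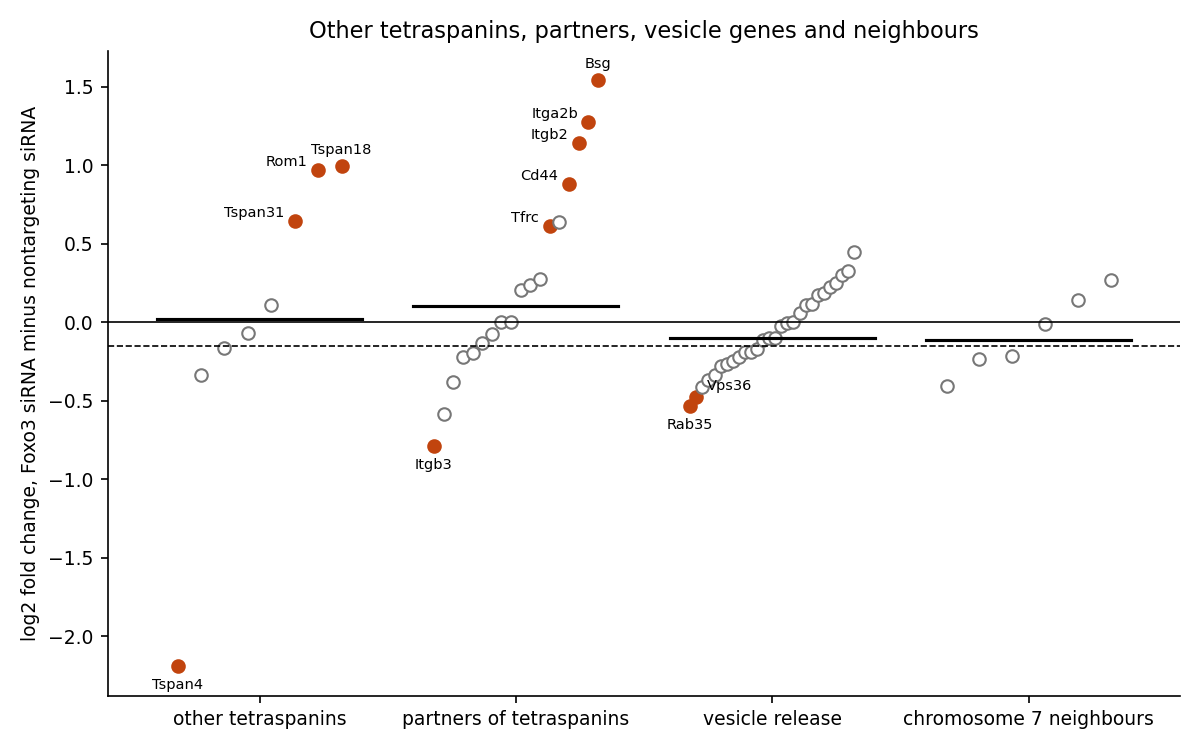
Log2 fold change (y axis, Foxo3 siRNA minus nontargeting siRNA) of each tested gene in the lists of further tetraspanins, partners, vesicle genes and chromosome 7 neighbours, 1 point per gene; filled points passed an adjusted p of 0.05, thick bars are list medians and the dashed line is the median of all tested probes at -0.15. Bsg at 1.54 is the highest point and Tspan4 at -2.19 the lowest.

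The genes whose levels followed the called members most closely across the 6 arrays are given as a description, since genes that differ between the 2 groups share that difference. For Cd63 these were Zbtb44 (Pearson r = 0.999), Zfp58 (0.998) and Zfp369 (0.997). For the Cd37 probe at base 819 they were Gmppa (0.999), Med31 (0.998) and Phb2 (0.997), and for the probe at base 1166 Slc30a9 (0.998), Park7 (0.996) and Muted (0.996). The 2 Cd37 probes shared none of these genes, which cannot show that the probes differ, because the difference between the groups enters every such correlation.

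**Figure D4:**
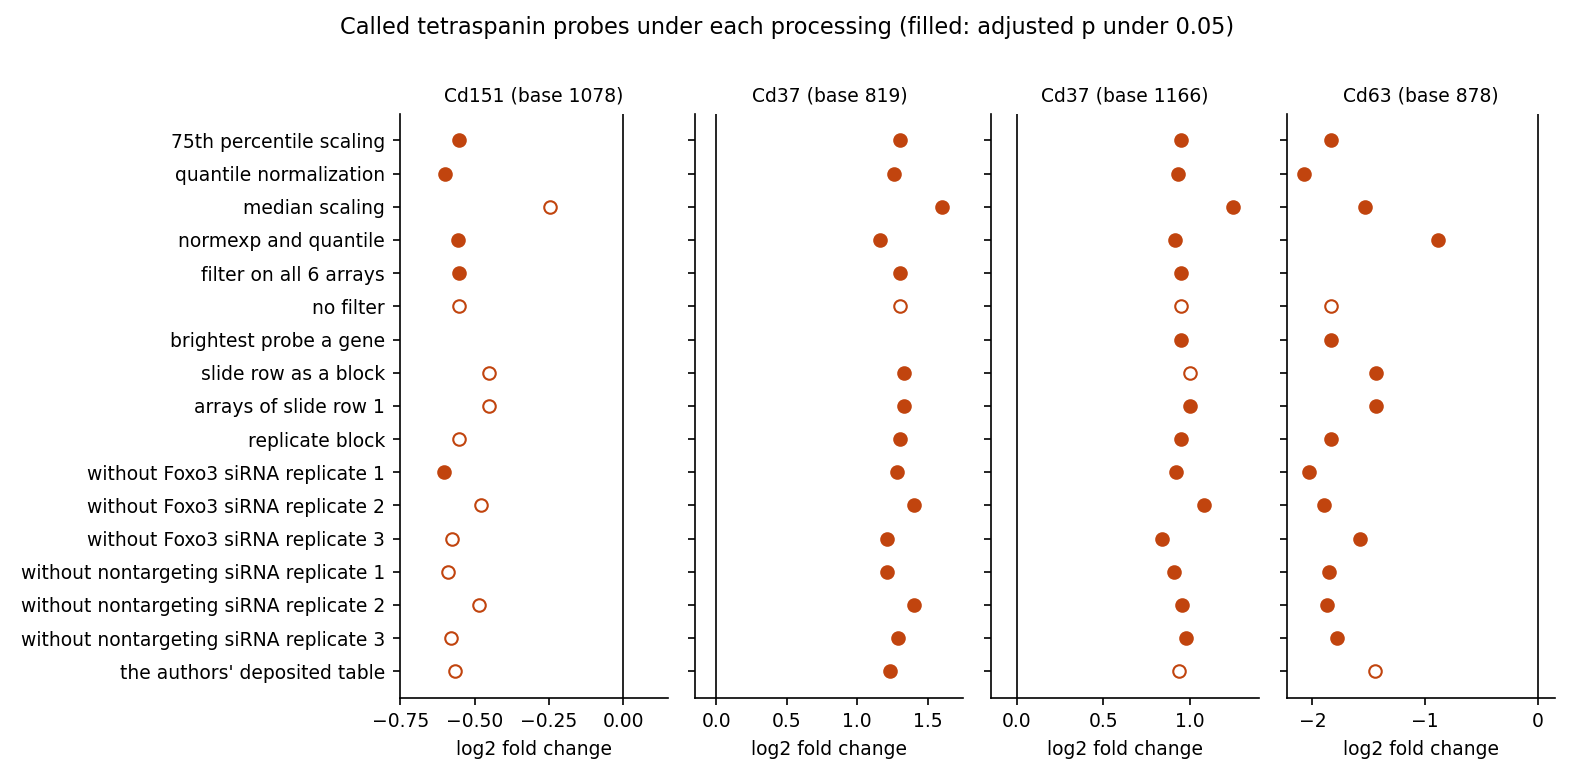
Log2 fold change (x axis, Foxo3 siRNA minus nontargeting siRNA) of the 4 called probes under each processing (y axis), filled where the adjusted p was under 0.05; a missing point means that the probe was not in that processing. Cd37 runs from 1.16 to 1.60 at base 819 and from 0.84 to 1.25 at base 1166, Cd63 runs from -2.08 to -0.89, and most Cd151 points are open.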

How the data were processed

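RNA from 6 samples was labelled with Cy3, 0.1 µg each, and hybridised to 1-colour Agilent mouse arrays. The deposited intensity values are, per the file headers, the processed signal of Agilent Feature Extraction 10.7.3.1: background-subtracted, detrended within each array, with surrogate values for signals not above background, and with no normalization between arrays. A surrogate compresses or inflates differences of dim probes. The authors' deposited series table repeats these signals (largest difference 0) and adds a log2 fold change and a p-value per spot, from limma per the submitters' processing notes; its base was read from the signals and its normalization is not given in the sources used here.

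Control spots (3671 of 62976) were left out, outlier spots set to missing, signals scaled to each array's 75th percentile on the log2 scale, and spots of a probe averaged. Probes well above background on all 3 arrays of a group were kept, which removes probes dim in both groups and keeps those dim in 1. limma 3.58.1 (lmFit and eBayes, two-sided, no covariate, R 4.3.3) was run on 27031 probes and p-values adjusted by Benjamini-Hochberg, and the fit was tested on simulated data. Probe pairs were compared by exact permutation with SciPy 1.17.1. Signal over background stands in for depth, and the 3 arrays per group limit the precision.

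Every probe of the 10 genes is given, with Foxo3, up to 4 genes with the smallest adjusted p from each list, and the 3 genes most correlated with each of the 3 largest called changes. Adam17, Cd44, Sdcbp and Tfrc were named after their values were seen. The members and lists were chosen with earlier results of these data known. Slide rows, scalings, background correction, filters, probe summary, a replicate block and left-out arrays were tried as alternatives. Symbols are those of the array design, probe positions mm9, and promoters RefSeq GRCm38.p6; exon and UTR annotation was not used here. A gene of the marker and partner lists is not reported here.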

Additional observations from a re-analysis of the deposited data

How the results depend on the processing

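The 12 tested tetraspanin probes gave 184 comparisons with alternatives: 155 kept direction and side of the threshold, 17 lost the call, 0 gained one and 12 turned sign, all 12 in probes that had not passed. Cd37 at base 819 ran from 1.16 to 1.60 and lost its call only without a filter (adjusted p = 0.0563); Cd37 at base 1166 ran from 0.84 to 1.25 and lost it in 3 of 16, Cd63 from -2.08 to -0.89 in 2 of 15, and Cd151 at base 1078 from -0.60 to -0.25 in 11 of 15.

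Sign turned in Cd151 at base 1760 (0.13) and Cd81 (0.0648) with median scaling. It turned in Tspan32 at base 69 with normexp (-0.0123), in the authors' deposited table (-0.0281) and with an array left out (-0.0477 to 0.128). It turned in Tspan33 with quantile normalization (0.00137), median scaling (0.27), the slide row as a block or only row 1 (0.00796) and with an array left out (-0.0916 to 0.00569), and in Th with median scaling (0.0902). Scaling to the median shifts all probes, and 77.3% of its 5178 called probes were higher, against 48.6% of 6834.

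Called probes numbered 6834, against 634 without a filter, 1858 with the slide row as a block, 1203 on row 1 alone, where the lone Foxo3 siRNA array is assumed to vary like the other group, 1349 in the authors' deposited table and 2690 to 5887 with an array left out. Called tetraspanin probes numbered 4, against 0 without a filter, 2 with the brightest probe a gene, 2 with the slide row as a block, 1 in the authors' deposited table and 3 to 4 with an array left out. Called Foxo3 probes numbered 1, against 0 with the filter on all 6 arrays, without a filter and with the brightest probe a gene, settings under which the RefSeq probe was absent or missed the threshold, and 1 with an array left out. Genes called in the 4 lists numbered 12, against 3 without a filter, 6 with the slide row as a block, 4 on row 1 and 7 to 8 with an array left out. Without a filter 55681 probes share the adjustment; otherwise the cause was not tested.

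Nothing in the labels says that replicate numbers pair the samples. Same-numbered arrays correlated in their deviations at 0.164, -0.310 and 0.114, and not every array correlated best with its own number. With the number as a replicate block, 6705 probes, 3 tetraspanin probes and 10 listed genes were called, 1 Foxo3 probe remained called, and Cd151 at base 1078 lost its call (adjusted p = 0.0533). Low signal over background limits Cd63, Cd82, Cd9, Cd53 and Tspan8, and slide row 2 holds only 2 Foxo3 siRNA arrays, so no comparison could be made within it.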
